A study of Mus musculus with 6 samples.

Results

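The mitochondrial ribosome is built from proteins that are encoded in the nucleus, translated in the cytoplasm and imported into mitochondria. Their genes were taken as the protein-coding mouse genes whose symbol is Mrpl (large subunit) or Mrps (small subunit) followed by a digit. This rule gave 78 of the 55487 genes in the table of normalized counts, 49 of them named for the large subunit and 29 for the small subunit, on 17 chromosomes. The RNA came from bone marrow of femora and tibiae in mice transplanted with MLL-AF9 leukemia, and 3 libraries were labelled PBS and 3 pIpC. Donor cells in both groups were C57BL/6, CD45.2+, carried Mx1-Cre and Brd9 fl/fl and had been given the MLL-AF9 fusion oncogene with a GFP reporter by retrovirus, and the recipients were CD45.1+ mice of 6 weeks of age, irradiated with 2 fractions of 450 cGy. The study's methods instead give the recipients of the leukemic cells as C57/BL6 mice that had a sublethal dose of 450 cGy. Starting the day after transplantation, recipients were given 3 injections of PBS or of pIpC at 20 mg/kg, one every other day, and marrow was taken 10 days after injection. The Mx1 promoter that drives Cre responds to interferon, and pIpC, which mimics viral RNA, raises interferon in donor and host cells alike. As the PBS group had no pIpC, exposure to pIpC and recombination of Brd9 cannot be told apart in this comparison. The labels name the sorted cells as GFP+ and the library preparation as unstranded, whereas the study's methods describe c-Kit+ lineage-negative cells and stranded libraries. Whether each library came from a separate mouse was not given in the sources used here, so the p-values measure the spread between these libraries.

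The libraries held 19277439 to 22378154 reads in the PBS group and 22348517 to 23586722 in the pIpC group. Brd9 itself had normalized counts of 1927, 1946 and 1632 in PBS and 2036, 2263 and 2011 in pIpC (log2 fold change 0.20, SE 0.13, limma adjusted p = 0.259; exact 2-sided permutation p = 0.10, the smallest that 3 against 3 allows). The pIpC label thus did not go with fewer Brd9 reads, although the count is summed over the whole gene, exons outside the deleted stretch included, and does not by itself check the deletion. Markers of other blood cells differed between the groups. The summed normalized count of 10 B cell markers was 136 to 310 in PBS and 1599 to 3033 in pIpC, and each of the 10 was higher in all pIpC libraries. Of 10 T and NK cell markers, all 10 did the same, with sums of 187 to 321 against 3878 to 4540. Most of this was Nkg7, and the other 9 summed to 20.4 to 25.1 against 177 to 229, with 6 of the 10 above the filter for testing. The 8 erythroid markers used here summed to 19.03 to 33.95 in PBS and 4759 to 6849 in pIpC, with Slc4a1 at 0 in every PBS library, as were Ms4a1 and Trac of the lymphoid lists. Markers of the myeloid lineage, 10 genes, summed to 108600 to 175500 in PBS and 390900 to 412500 in pIpC, with 6 of the 10 above PBS in all pIpC libraries and 2 below. Without Mpo and Lyz2 the sums of the other 8 were 96320 to 156900 in PBS and 114800 to 118200 in pIpC and overlapped, and Cd14 was lower in pIpC (log2 fold change -1.16, adjusted p = 0.0176). The part of these cells in the values below was not tested, and in bulk RNA fewer cells of a type and less RNA per cell cannot be told apart.

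PBS replicate 3 stood apart from the other PBS libraries. The chi-square per gene between its reads and those of PBS replicates 1 and 2 was 216 and 191, against 6.83 between the latter and 8.67 to 18.5 among the pIpC libraries. Its deviation from the mean of all libraries ran against transcript length (Spearman rho of -0.39 across genes, against 0.062 to 0.24 in the others). The main results are therefore given with and without it.

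Mitochondrial ribosomes translate the mRNAs of the mitochondrial genome, whose 13 protein-coding genes all encode subunits of the respiratory chain and ATP synthase. The small subunit reads the mRNA and the large subunit joins the amino acids and anchors the particle at the inner membrane. Compared with a bacterial ribosome, the mammalian particle has less RNA and more protein, so that proteins with a bacterial homologue sit beside others found only in mitochondria. Acute myeloid leukemia cells are known to depend on this machinery for oxidative phosphorylation. A few names do not follow the structure. Mrps30 and Mrps18a are proteins of the large subunit, and Mrps36 is a component of the oxoglutarate dehydrogenase complex.

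The clearest feature of the mitochondrial ribosomal protein mRNAs was their level in PBS replicate 3. The filter on low values (a mean of 10 over the 6 libraries) kept 77 members, of which 76 had more reads in PBS replicate 3 than in both other PBS libraries, and 75 had their highest value of the 6 libraries there. Over all 15020 genes tested, 45.2% were above both other PBS libraries in this library and 34.4% had their highest value in it. The log2 ratio of PBS replicate 3 to the mean of PBS replicates 1 and 2 had a median of 1.09 (1.08 in the large and 1.10 in the small subunit), against 0.00 for all genes. Among the members it ran from 0.03 for Mrps2 to 1.73 for Mrps6. The coefficient of variation had a median over members of 47.5% in the PBS group and 8.3% in the pIpC group. Within the pIpC group, replicate 1 was the highest for 62 of 77 members. The share of all genes for which it was the highest was not computed, so this cannot be called a trait of the members.

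**Figure D1:**
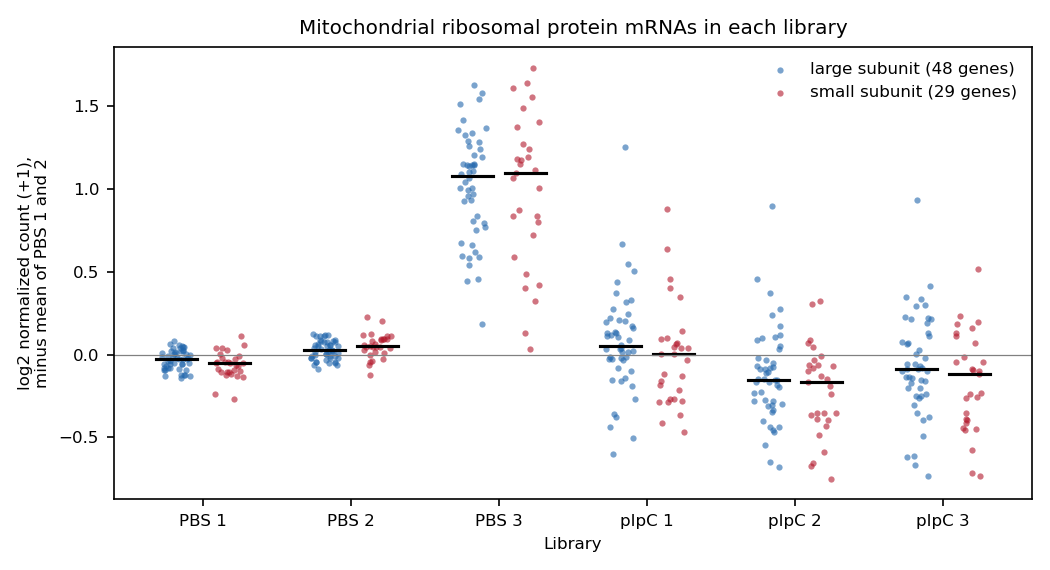
Each point is 1 mitochondrial ribosomal protein gene in 1 library, as log2 (normalized count + 1) minus the log2 of the mean of PBS 1 and 2 (vertical axis), for the 48 large and 29 small subunit genes tested; black bars are medians. Both subunits have a median near 1.09 in PBS 3, whereas the PBS 1, PBS 2 and pIpC points lie around 0.

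Transcript length went with part of this excess. Over all genes the rho between length and the log2 ratio was -0.50 (15005 genes with a length), and over the members it was -0.33 (77 genes that share these libraries). Genes with transcripts under 1000 bases had a median log2 ratio of 0.86 (2496 genes), compared with 1.18 in the 29 members of that length. From 2000 to 4000 bases the medians were -0.08 for 5657 genes and 0.88 for 14 members, and at 4000 bases and over they were -0.67 for 3126 genes and 0.86 for 6 members. From 1000 to 2000 bases they were 0.49 for 3726 genes and 1.00 for 28 members. In each length range the median of the members was above that of all genes.

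**Figure D2:**
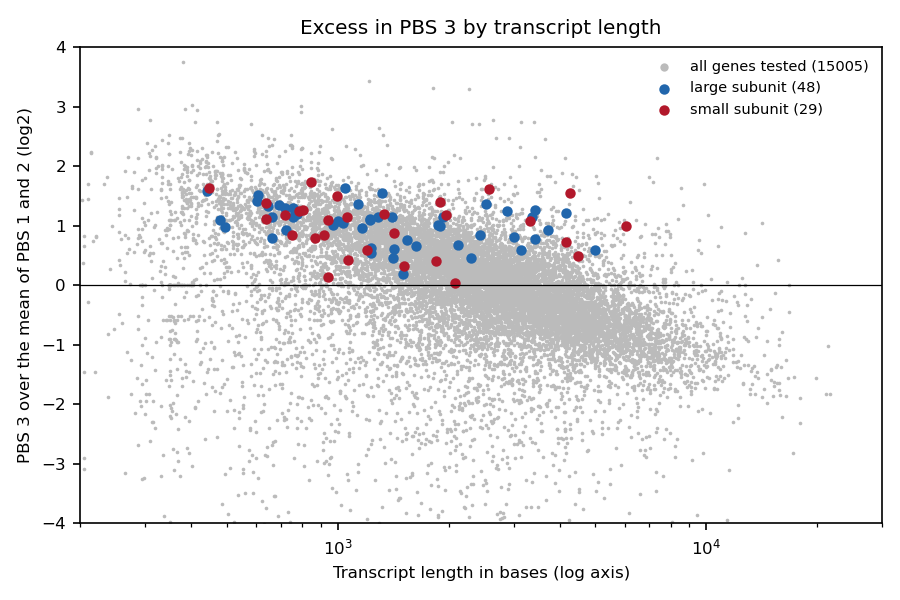
The log2 ratio of PBS 3 to the mean of PBS 1 and 2 is plotted against transcript length in bases (log axis) for 15005 genes in gray and for the large (blue) and small (red) subunit genes; 260 genes lie outside the axes. All members lie above 0, including the 6 of 4000 bases and over, where the median of all genes is -0.67.

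The question the design poses is whether these mRNAs differ between the pIpC and PBS groups. With all 6 libraries, 13 of the 77 members were lower in pIpC at an adjusted p under 0.1 (limma on log2 of the normalized count + 1, Benjamini-Hochberg over 15020 genes) and 0 were higher. These 13 are 16.9% of the members, where 20.4% of all genes were called lower, and 25% of all genes were called higher. At an unadjusted p under 0.05, 14 of the 77 members were lower and 0 higher, where 3152 of the 15020 genes were lower and 3810 higher. With edgeR and DESeq2 on the recovered reads, 0 members were likewise called higher (23.7% and 25.5% of all genes). The members called lower were 18 by edgeR (22.2% of all genes) and 19 by DESeq2 (24.2%). The log2 fold change was below 0 for 73 members and above 0 for 4, with a median of -0.41, compared with 0.01 for all genes. In 24 members (31.2%) the groups did not overlap and pIpC was lower, against 26.3% of all genes, and in 0 members did they not overlap with pIpC higher, against 30.5%.

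Without PBS replicate 3 the picture split. All 13 members were still called lower, 21 were called lower in all (27.3% of members, against 30.6% of all genes) and 9 were called higher (11.7%, against 34.5%). The groups did not overlap in 24 members with pIpC lower (35% of all genes) and in 13 with pIpC higher (38.3%). The median log2 fold change was then -0.07, with 48 members below 0 and 29 above. After each library's trend with transcript length had been removed, 11 members were lower (24.4% of all genes) and 4 higher (28.7%), with a median of -0.15, and with both steps together 20 were lower (30.4% of all genes) and 16 higher (35.3%), with a median of 0.01.

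**Figure D3:**
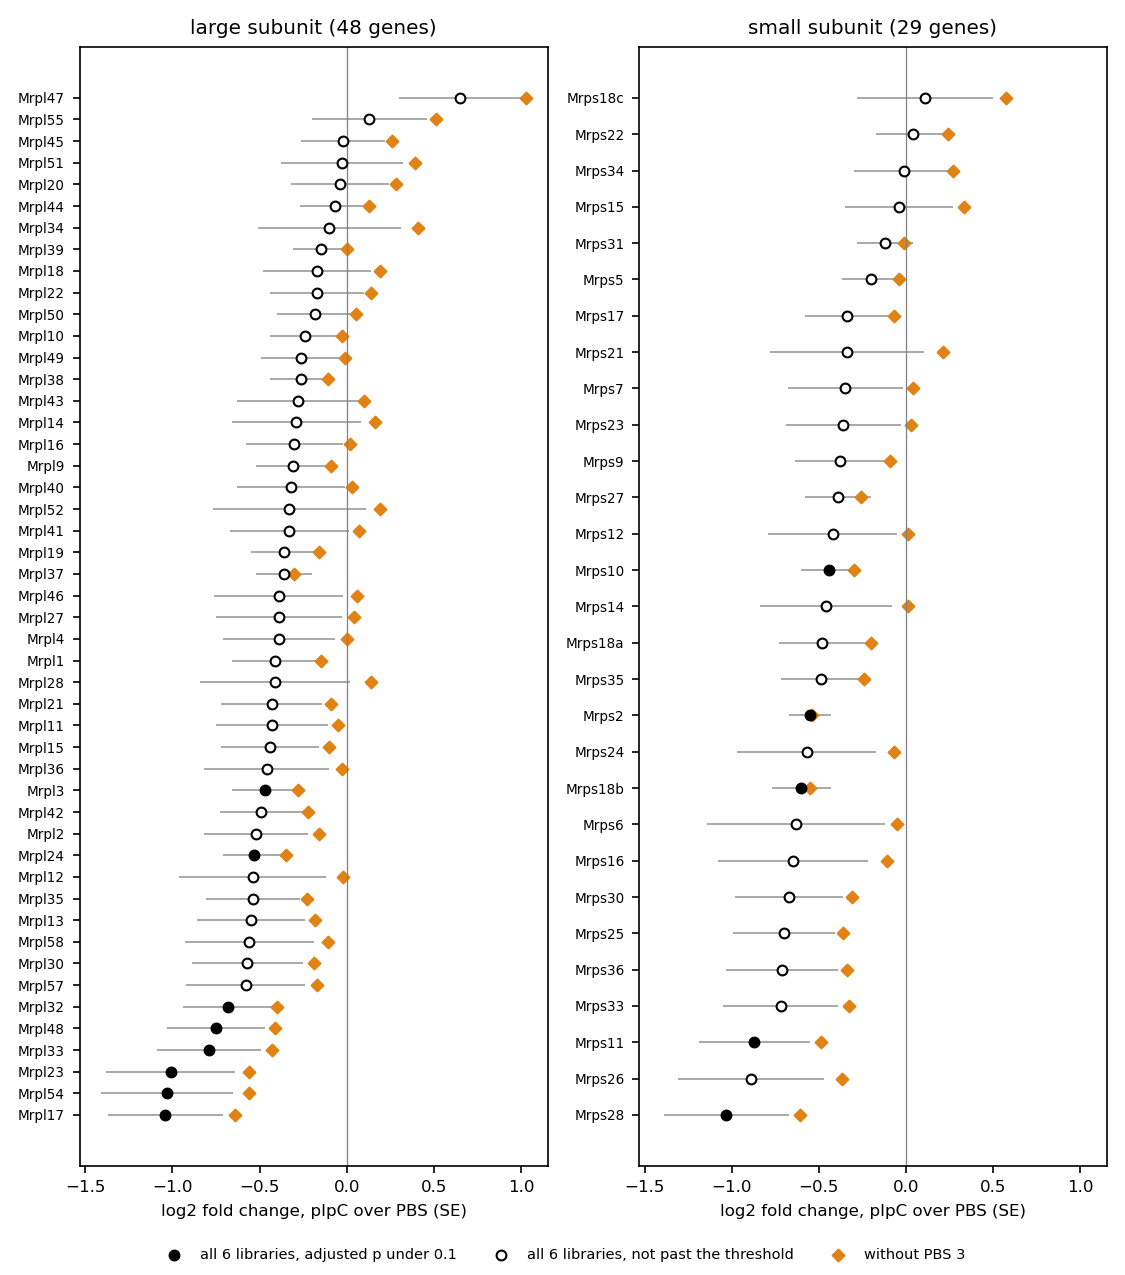
Log2 fold change of pIpC over PBS for each of the 48 large and 29 small subunit genes, ordered by value, with circles for all 6 libraries (bars, SE; filled where the adjusted p was under 0.1) and orange diamonds without PBS 3. With all 6 libraries 73 of 77 lie below 0, and without PBS 3 the diamonds lie on both sides of 0, 48 below and 29 above.

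Mrps2 and Mrps18b were lower with PBS values that lay close together. Mrps2, the mitochondrial homologue of the bacterial small subunit protein S2, had normalized counts of 754, 820 and 806 in PBS and 570, 523 and 527 in pIpC. The 3 PBS values differed by less than the gap between the groups (log2 fold change -0.55, SE 0.12, adjusted p = 0.0114; -0.54 without PBS replicate 3). It was the single member called lower in all 19 alternative fits, with an adjusted p of at most 0.0632. Mrps18b, a small subunit protein and one of 3 paralogs that carry the S18 name, had 434, 477 and 499 in PBS and 378, 285 and 277 in pIpC. These groups did not overlap either (log2 fold change -0.60, SE 0.17, adjusted p = 0.0353), although the call was lost when pIpC replicate 2 or 3 was left out and when the length trend was removed (adjusted p of up to 0.33). An antisense gene, Gm16279, overlaps its exons, with 48.5, 61.7 and 65.6 in PBS and 39.9, 19.4 and 26.1 in pIpC, and reads of the pair cannot be told apart if the libraries were unstranded.

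Of the large subunit, 8 of 48 members were lower. Mrpl17, homologous to bacterial L17, had the lowest fold change of all members. Its normalized counts were 870, 971 and 2129 in PBS and 650, 574 and 553 in pIpC, and every PBS value was above every pIpC value (log2 fold change -1.04, SE 0.33, adjusted p = 0.0501; -0.64 without PBS replicate 3, adjusted p = 0.000604). Mrpl23, whose bacterial homologue lines the exit of the peptide tunnel, had 695, 818 and 1915 in PBS and 559, 482 and 494 in pIpC. It too had no overlap, with PBS replicate 3 more than the others of its group (log2 fold change -1.01, SE 0.37, adjusted p = 0.0738; -0.56 without PBS replicate 3). Mrpl54, a mitochondria-specific protein, had 486, 511 and 1334 in PBS and 328, 361 and 325 in pIpC (log2 fold change -1.03, SE 0.38, adjusted p = 0.0776; -0.56 without PBS replicate 3). Mrpl33, the member with the highest level per kilobase, had 2117, 1948 and 4329 in PBS and 1584, 1498 and 1444 in pIpC. Its groups again lay apart (log2 fold change -0.79, SE 0.30, adjusted p = 0.0814; -0.43 without PBS replicate 3). Mrpl48, mitochondria-specific, had 1033, 1120 and 2165 in PBS against 828, 784 and 817 in pIpC (log2 fold change -0.75, adjusted p = 0.0805; -0.41 without PBS replicate 3). Mrpl32, which is cut to its mature form by the m-AAA protease after import, had 782, 693 and 1294 in PBS against 664, 558 and 464 in pIpC (log2 fold change -0.68, adjusted p = 0.0899; -0.40 without PBS replicate 3). Mrpl24 and Mrpl3, homologues of bacterial L24 and L3, completed the set with log2 fold changes of -0.53 (adjusted p = 0.0549; -0.35 without PBS replicate 3) and -0.47 (adjusted p = 0.0926; -0.28 without it). Each of these 8 calls was lost when any single pIpC library was left out, and none of them when PBS replicate 3 was; that of Mrpl32 was also lost without PBS replicate 1.

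Of the small subunit, 5 of 29 members were lower, Mrps2 and Mrps18b among them. Mrps28 had 305, 359 and 785 in PBS and 258, 197 and 199 in pIpC. All PBS values were above all pIpC values, with PBS replicate 3 the highest (log2 fold change -1.03, SE 0.36, adjusted p = 0.0665; -0.61 without PBS replicate 3, adjusted p = 0.00931). Mrps11, homologous to bacterial S11, had 581, 588 and 1297 in PBS and 438, 371 and 445 in pIpC (log2 fold change -0.87, SE 0.32, adjusted p = 0.0769; -0.49 without PBS replicate 3). Mrps10, homologous to bacterial S10, had 684, 628 and 878 against 545, 557 and 500 (log2 fold change -0.44, SE 0.16, adjusted p = 0.0782; -0.30 without PBS replicate 3). These groups did not overlap either. The calls of Mrps28, Mrps11 and Mrps10 were lost when any pIpC library was left out (adjusted p of up to 0.229), that of Mrps10 also without PBS replicate 1 and with the length trend removed (log2 fold change -0.14, adjusted p = 0.369). Mrps26, Mrps33, Mrps36 and Mrps25 had similar values that missed the threshold with all 6 libraries (log2 fold changes of -0.89, -0.72, -0.71 and -0.70, adjusted p of 0.104 to 0.142) and passed it without PBS replicate 3 (-0.37, -0.33, -0.34 and -0.36), as did Mrps30 (-0.67, and -0.31 without that library). With PBS replicate 3 left out, 11 of 29 small subunit members (37.9%) and 10 of 48 large subunit members (20.8%) were called lower, against 30.6% of all genes. With the length trend also removed, 9 of 29 and 11 of 48 were called lower, against 30.4% of all genes. These small subunit counts go by name and include Mrps30, Mrps18a and Mrps36 among the 29. By structure, 9 of 26 small and 11 of 50 large subunit members were called lower without PBS replicate 3. With the length trend also removed, these were 8 of 26 and 12 of 50. Whether the subunits differed in this share was not tested.

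**Figure D4:**
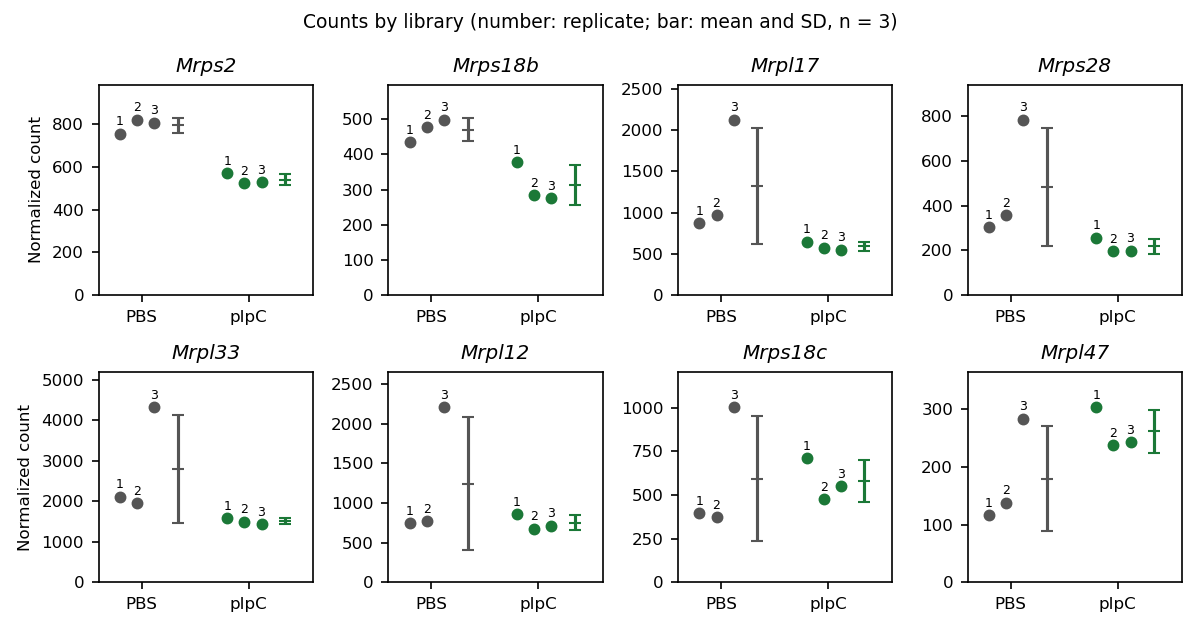
Normalized counts of 8 mitochondrial ribosomal protein genes by library (points, numbered by replicate) with the mean and SD of each group (n = 3), on axes that start at 0. Mrps2 and Mrps18b have PBS values close together and above all pIpC values, Mrpl17, Mrps28 and Mrpl33 are separated with PBS 3 far above the rest, in Mrps18c and Mrpl47 all pIpC values lie above PBS 1 and 2, and in Mrpl12 they lie on both sides of them.

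For the members at the other end of the range, PBS replicates 1 and 2 lay below all pIpC libraries and PBS replicate 3 did not. Mrpl47, homologous to bacterial L29, had the highest log2 fold change, with 116, 138 and 283 in PBS and 303, 237 and 243 in pIpC. The value of PBS replicate 3 lay within the pIpC values (log2 fold change 0.65, SE 0.35, adjusted p = 0.188; 1.03 without PBS replicate 3, adjusted p = 0.000646). Its exons overlap those of Actl6a and Ndufb5 on the other strand, and both of these had more reads in pIpC than in PBS replicates 1 and 2. Actl6a had 583, 625 and 514 in PBS and 1280, 1224 and 1156 in pIpC (log2 fold change 1.09, adjusted p = 0.000836), so the part of Actl6a reads in the Mrpl47 count cannot be told apart in unstranded libraries. Mrps18c had 397, 375 and 1004 in PBS and 710, 477 and 552 in pIpC, with PBS replicate 3 above all of these (log2 fold change 0.11, adjusted p = 0.848; 0.57 without PBS replicate 3, adjusted p = 0.0126; below 0 in edgeR and DESeq2). Mrpl55 had 215, 223 and 484 in PBS and 347, 300 and 292 in pIpC (log2 fold change 0.13, adjusted p = 0.776; 0.51 without PBS replicate 3, adjusted p = 0.00732). The other members called higher without PBS replicate 3 were Mrpl34, Mrpl51, Mrps15, Mrpl20, Mrpl45 and Mrpl18, with log2 fold changes of 0.19 to 0.41. None of the 9 was past the threshold in the main test of all 6 libraries, while removal of the length trend from all 6 libraries called Mrpl20 (log2 fold change 0.42, adjusted p = 0.00903), Mrpl55 (0.52, adjusted p = 0.0261) and Mrps18c (0.53, adjusted p = 0.0654) higher.

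Several members with known roles in translation or disease did not pass the test with all 6 libraries. Mrpl12, the protein of the flexible stalk to which translation factors bind, had 748, 767 and 2210 in PBS and 855, 675 and 716 in pIpC. The pIpC values surrounded those of PBS replicates 1 and 2 (log2 fold change -0.54, SE 0.42, adjusted p = 0.350; -0.02 without PBS replicate 3). Mrps12, the homologue of S12 in the decoding center, had 304, 414 and 868 against 369, 352 and 347 (log2 fold change -0.42, adjusted p = 0.398; 0.01 without PBS replicate 3). Mrpl58, a release factor homologue that frees peptides from stalled ribosomes, had 575, 552 and 1446 against 553, 506 and 511 (log2 fold change -0.56, adjusted p = 0.273; -0.11 without PBS replicate 3). Mrpl45, which lies at the tunnel exit next to the inner membrane, had 645, 603 and 1117 against 779, 703 and 769 (log2 fold change -0.02, adjusted p = 0.964; 0.26 without PBS replicate 3, adjusted p = 0.0288). Mrpl44, Mrps22 and Mrps34, in which inherited defects cause mitochondrial disease, had log2 fold changes of -0.07, 0.04 and -0.01, and 0.13, 0.24 and 0.27 without PBS replicate 3, with no adjusted p under 0.1 in either; with the length trend removed Mrps22 was called higher (0.30, adjusted p = 0.072). Mrps18a, by structure a large subunit protein, had -0.48 (adjusted p = 0.185; -0.20 without PBS replicate 3). Mrpl53 was at 0 in all 6 libraries. Its exons overlap those of Gm42688 on the same strand, which had 47 to 70.2 normalized counts, and reads that fall in both cannot be assigned from these values.

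The 2 subunits were compared within each library, which removes the scale of the library. The summed normalized count per kilobase of transcript was 29015, 29922 and 61331 for the large subunit in PBS and 29602, 25872 and 26735 in pIpC, and for the small subunit it was 14116, 15228 and 31718 in PBS and 15572, 13280 and 13920 in pIpC. The ratio of large to small was 2.06, 1.97 and 1.93 in PBS and 1.90, 1.95 and 1.92 in pIpC. In PBS replicate 3 both sums were about as far above the other libraries, and the ratio lay next to those of the pIpC libraries. The group means were 1.99 ± 0.063 and 1.92 ± 0.024 (SD, n = 3), which differ by -0.061, less than the SD of the PBS group. The sign turned with the way of summing: without division by length the difference was 0.021, less than the PBS SD of 0.047. For the ratio of geometric means, in which each gene has the same weight, it was 0.066, with all 3 PBS values (mean 1.187) below all 3 pIpC values (mean 1.253), and this exceeded the SDs of 0.027 and 0.007. With Mrps30 and Mrps18a counted in the large subunit and Mrps36 left out, the ratio of sums was 2.333, 2.226 and 2.167 in PBS and 2.103, 2.165 and 2.166 in pIpC, a difference of -0.097 with SDs of 0.084 and 0.036. Here PBS replicate 3 (2.167) was almost level with pIpC replicate 3 (2.166), so the groups barely stood apart. The group means of these last 2 measures differed in opposite directions. The median log2 fold change was -0.39 for the large subunit, where 46 of 48 members were below 0, and -0.46 for the small subunit, where 27 of 29 were, and without PBS replicate 3 the medians were -0.03 and -0.09.

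Levels per kilobase (mean of the 6 libraries) spanned a wide range. They ran from 65.4 for Mrpl47 to 4504 for Mrpl33, with a median of 531. After Mrpl33 came Mrps21 with 2742, Mrpl30 with 1937 and Mrpl20 with 1627, and Mrps17 and Mrps33 were the next of the small subunit among those named by level with 1517 and 1322. Of these, Mrpl33 alone was called with all 6 libraries. Mrps21, for example, had 795, 914 and 2670 in PBS and 1087, 907 and 972 in pIpC, and outside PBS replicate 3 its values overlapped.

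Proteins classed here as having a bacterial homologue and those classed as mitochondria-specific had similar medians. The latter class, called without a homologue below, holds Mrps18a and Mrps18b, although both are paralogs of Mrps18c, which was put with the homologues. Mrps18b is among its members called lower, with all 6 libraries and without PBS replicate 3. With all 6 libraries the median log2 fold change was -0.42 for 30 large subunit proteins with a homologue (6 lower), -0.33 for 20 without (2 lower), -0.43 for 16 small subunit proteins with a homologue (4 lower) and -0.44 for 10 without (1 lower). Without PBS replicate 3 the medians were -0.07, 0.00, -0.06 and -0.25, with 5 of the 10 small subunit proteins without a homologue called lower and 0 higher (30.6% and 34.5% of all genes), and 4 lower and 2 higher with the length trend also removed. Exons of 33 of 78 members overlap another gene. Those members and the rest had the same median of -0.41 (-0.06 and -0.07 without PBS replicate 3), with 6 of 32 and 7 of 45 tested called lower.

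Promoters of the members were searched for the letters of motifs known from genes of mitochondrial proteins. RefSeq promoters of GRCm38.p6, which run from 250 bases before to 50 after the start of the gene, were matched for 68 of the 77 members tested. The motifs were NRF1 (its 10-letter palindrome), the ETS site bound by the GABP factor (CCGGAAGT), YY1 (AAGATGGCG), the CCAAT box (CCAAT) and the E-box bound by MYC (CACGTG), each looked for on both strands, and no motif contains another. ETS letters were found in 12 members (17.6%), against 8.76% of 9736 promoters of protein-coding genes tested and 4.03% of all 27025 promoters. YY1 letters were in 8 members (11.8%, against 3.34% and 1.51%) and NRF1 letters in 3 (4.41%, against 2.13% and 0.977%). CCAAT was in 26 (38.2%, against 38.8% and 37.7%) and the E-box in 5 (7.35%, against 10.1% and 7.20%). Among the 11 members called lower that had a promoter, ETS letters were in 3, CCAAT in 4, NRF1 and YY1 in 1 each and the E-box in 0. These are descriptions of letters in a window, and a window without them says nothing of the factor.

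Stretches of 120 bases just before the start are shown for 4 of the members called lower, to let a promoter with these letters be seen beside one without. Mrpl3 (chr9:105053148-105053267, plus strand) holds the ETS letters and a CCAAT box read on the reverse strand, and Mrpl48 (chr7:100583131-100583250, minus strand) holds the ETS letters on the reverse strand, both in capitals. Mrpl17 (chr7:105811088-105811207, minus strand), with the lowest fold change, and Mrps2 (chr2:28467946-28468065, plus strand), with the smallest adjusted p, hold none of the 5 motifs in the exact letters searched. The Mrpl17 stretch does hold letters close to the NRF1 palindrome (gcgcacgcgc and gcgcatgcgt), which the exact search did not count. Sequences are given 5′ to 3′ on the strand of the gene, from RefSeq on GRCm38.p6, and at most 29 bases of each lie in an annotated exon.
Mrpl3: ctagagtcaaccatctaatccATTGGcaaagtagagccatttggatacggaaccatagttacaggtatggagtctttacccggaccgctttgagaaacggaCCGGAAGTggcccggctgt
Mrpl48: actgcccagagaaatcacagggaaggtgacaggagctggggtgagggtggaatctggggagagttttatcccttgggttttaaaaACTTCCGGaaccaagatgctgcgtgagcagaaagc
Mrpl17: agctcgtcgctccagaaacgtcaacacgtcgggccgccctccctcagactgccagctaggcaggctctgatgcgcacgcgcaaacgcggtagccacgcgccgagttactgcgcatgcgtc
Mrps2: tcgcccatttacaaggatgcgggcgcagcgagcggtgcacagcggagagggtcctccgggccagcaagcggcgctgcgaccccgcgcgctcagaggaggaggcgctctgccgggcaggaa

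Other parts of mitochondrial translation were read from lists of named genes. Of the 5 subunit proteins with other names, 0 were called by limma with all 6 libraries, where 45.3% of all genes were called in either direction. An unadjusted p under 0.05 was found for 0 of them, where 3152 of the 15020 genes were lower and 3810 higher. The log2 fold changes were -0.56 for Chchd1, -0.47 for Dap3, -0.15 for Gadd45gip1, -0.11 for Ptcd3 and -0.02 for Aurkaip1. With edgeR 0 were called as well (22.2% of all genes lower and 23.7% higher), and so with DESeq2 (24.2% and 25.5%). The values without PBS replicate 3 were -0.04 for Chchd1, -0.15 for Dap3, 0.17 for Gadd45gip1 and -0.11 for Ptcd3. Chchd1 had 591, 673 and 1868 in PBS and 743, 529 and 593 in pIpC, the same excess in PBS replicate 3 as most members. Ptcd3, an RNA-binding protein of the small subunit, had 1554, 1579 and 1582 against 1530, 1462 and 1371 and lacked that excess. Aurkaip1 was called higher without PBS replicate 3 (log2 fold change 0.39, adjusted p = 0.00194).

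Mitochondrial translation factors, which start, extend, end and recycle translation, were called lower for 5 of 15 and higher for 1 (20.4% and 25% of all genes), with a median log2 fold change of -0.28. Without PBS replicate 3, 8 were lower and 2 higher (30.6% and 34.5% of all genes), with a median of -0.21. Mrrf, the ribosome recycling factor, had 287, 319 and 575 in PBS and 223, 220 and 207 in pIpC (log2 fold change -0.79, SE 0.28, adjusted p = 0.0638; -0.48 without PBS replicate 3). The groups did not overlap, and the call was lost when any pIpC library was left out (adjusted p of 0.15 to 0.174). The others called lower were Guf1, Mtrf1, Mtfmt and Mtif2. Gfm2, an elongation factor G paralog that acts with Mrrf in splitting the ribosome, had 562, 543 and 495 in PBS and 762, 705 and 778 in pIpC (log2 fold change 0.49, SE 0.13, adjusted p = 0.0224), so that all pIpC values were above all PBS values, although the call was lost without pIpC replicate 3 (adjusted p = 0.105). The excess in PBS replicate 3 had a median of 0.19 over these 15 genes.

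Assembly factors process the ribosomal RNA and help the proteins onto it. Of 31 tested, 6 were lower and 1 was higher (20.4% and 25% of all genes), with a median of -0.36. Mtg1, a GTPase of large subunit assembly, had 549, 716 and 811 in PBS and 254, 237 and 249 in pIpC (log2 fold change -1.47, SE 0.18, adjusted p = 0.000914; -1.34 without PBS replicate 3). The pIpC values lay close together and far below those of PBS. The others called lower were Tfb1m, Rcc1l, Mrm1, Nsun4 and Mettl17, which with the exception of Rcc1l belong to families of RNA methyltransferases. Rbfa, a factor of small subunit maturation, had 562, 595 and 790 in PBS and 1265, 1120 and 1244 in pIpC (log2 fold change 0.91, SE 0.16, adjusted p = 0.0053; 1.06 without PBS replicate 3). Its groups did not overlap, in the other direction. Without PBS replicate 3, 12 were lower and 5 higher (30.6% and 34.5% of all genes), with a median of -0.14.

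Genes that copy and transcribe the mitochondrial genome were lower for 4 of 11 (Top1mt, Mgme1, Polrmt and Twnk) and higher for 1 (20.4% and 25% of all genes), with a median of -0.40. With PBS replicate 3 left out, 5 were lower and 1 higher (30.6% and 34.5% of all genes), with a median of -0.20. Top1mt, the mitochondrial topoisomerase, had 331, 416 and 592 in PBS and 144, 124 and 134 in pIpC (log2 fold change -1.69, SE 0.24, adjusted p = 0.00179). Polg, the catalytic subunit of the mitochondrial DNA polymerase, had 1376, 1404 and 696 in PBS and 2772, 2910 and 3138 in pIpC (log2 fold change 1.41, SE 0.28, adjusted p = 0.00773). Both were clear of overlap, and in Polg PBS replicate 3 was the lowest library rather than the highest.

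Of the 13 protein-coding genes of the mitochondrial genome, limma called 0 with all 6 libraries, where 45.3% of all genes were called in either direction. At an unadjusted p under 0.05 there were also 0, where 3152 of the 15020 genes were lower and 3810 higher. With edgeR 1 of them was called higher (23.7% of all genes) and with DESeq2 4 (25.5%). After removal of the length trend, limma called 8 higher (28.7% of all genes). The median log2 fold change was 0.39. All genes of the mitochondrial chromosome together, these 13 included, made up 2.88% to 3.48% of the summed counts of a library. By position mt-Nd4l overlaps mt-Nd4 and mt-Atp8 overlaps mt-Atp6, so reads in the shared bases cannot be assigned to either gene alone. mt-Nd4l had the highest fold change, with 11585, 11054 and 1197 in PBS and 14214, 11425 and 13370 in pIpC. In it PBS replicate 3 was far below all others (log2 fold change 1.27, SE 0.84, adjusted p = 0.276, and 0.19 without PBS replicate 3, adjusted p = 0.108). mt-Nd6, the only one of these genes on the light strand, had 8185, 7817 and 20799 against 8804, 8583 and 9634 (log2 fold change -0.29, adjusted p = 0.571, and 0.17 without PBS replicate 3). It overlaps mt-Nd5 on the other strand, and reads of the opposite strand cannot be told apart if the libraries were unstranded. Without PBS replicate 3, 11 of the 13 were called higher (34.5% of all genes), with a median of 0.24. The nuclear-encoded ribosomal proteins had medians of opposite sign, -0.41 with all 6 libraries and -0.07 without PBS replicate 3. With that library left out and the length trend removed, the sign was the same, with medians of 0.37 for the mitochondrially encoded mRNAs and 0.01 for the ribosomal proteins.

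**Figure D5:**
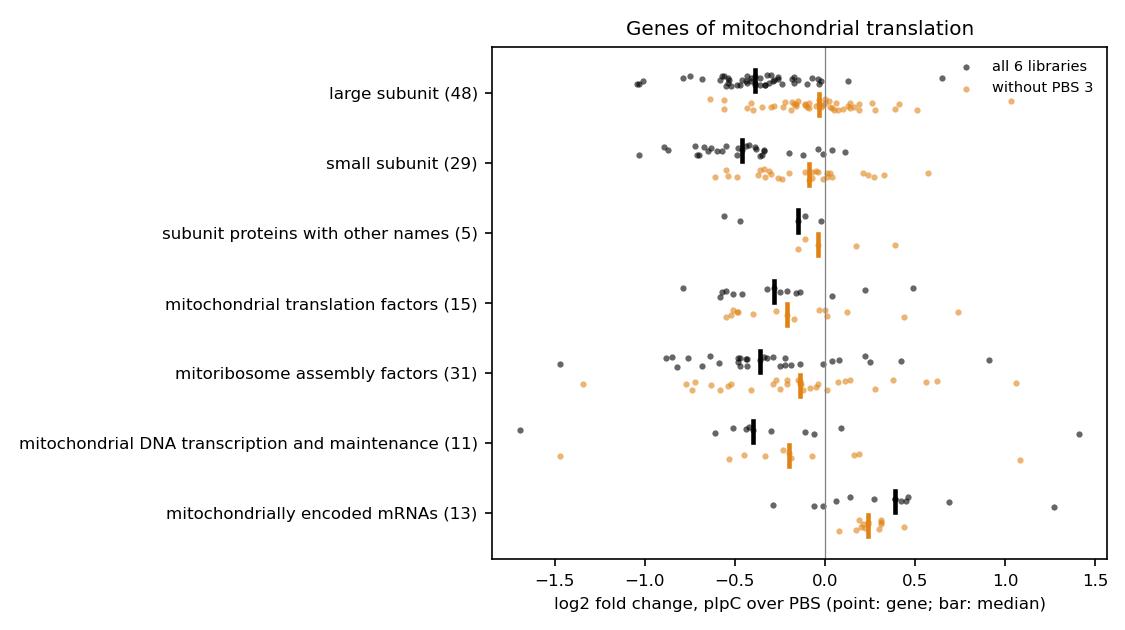
Log2 fold change of pIpC over PBS for the genes of each list (points) with the median (bars), in black for all 6 libraries and in orange without PBS 3; the number of genes tested is in brackets. Both subunits shift from medians of -0.39 and -0.46 to -0.03 and -0.09 when PBS 3 is left out, Mtg1 and Top1mt stay at the far left, and the mitochondrially encoded mRNAs keep medians above 0.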

How the data were processed

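RNA-seq of 6 bone marrow samples was analysed, 3 labelled PBS and 3 pIpC. The authors mapped reads and deposited gene counts divided by a size factor per library. Per the study's methods this was done with nf-core/rnaseq, STAR, RSEM and DESeq2 on mm10, whereas the submitters' processing notes name HISAT2 2.2.1, SAMtools, Subread featureCounts and edgeR on GRCm38. The deposited values were treated as a signal, and 100% of them were whole multiples (within 0.1) of the value of 1 read, so whole reads were recovered for count tests. Gene symbols, positions and transcript lengths (median over basic protein-coding transcripts) came from GENCODE M21 on GRCm38, and 55227 of 55487 IDs matched. No per-sample column was left unused (0).

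Genes were tested with limma 3.58.1 in R 4.3.3, on log2 of the normalized count plus 1 and with a prior variance that follows intensity. Of the genes, 15020 had a mean of 10 or more and entered the fit, and calls were made at a Benjamini-Hochberg adjusted p under 0.1. A fold change on this scale understates the change of low genes. Other settings tried were pseudocounts of 0.1 and 10, a filter at 50 or none, quantile normalization, median centring, each library left out, a replicate block, no trend, edgeR 4.0.16, DESeq2 1.42.0, an adjusted p under 0.05, and removal of length or GC trends. Length removal without PBS replicate 3, and the subunit ratio with each library left out, were added after seeing the data. Medians over lists and subunit ratios are descriptions with no test. The scripts were tested on simulated data. Members, lists and tests were chosen with earlier results of these data known.

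Genes named are the 6 lowest and 3 highest fold changes and the 3 highest levels per kilobase of each subunit, any member called against the majority or removed by the filter, a fixed set of known members and subunit proteins with other names, the extremes of each other list, and Brd9. Other genes named, such as Mrps2, Mrps10, Mrpl3, Mrpl24, overlapping or neighbouring genes, the further called genes of each list and those called without PBS replicate 3, were chosen after their values were seen. A marker gene of the erythroid list is not reported here.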

Additional observations from a re-analysis of the deposited data

How the results depend on the processing

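Over 42 named genes and 20 alternatives, 714 of 840 comparisons kept the direction and the side of the threshold, 50 lost and 33 gained a call, and 43 changed direction. The counts called lower with all 6 libraries were 8 large and 5 small subunit members (20.4% of all genes). They were 2 and 3 with no intensity trend and 0 and 2 at an adjusted p under 0.05. The shares of all genes at these settings are not given here, so these counts are not read as a trait of the members. For the small subunit the counts called lower were 10 with edgeR and 11 with DESeq2 (22.2% and 24.2% of all genes). That subunit had 3 with the length trend removed (24.4% of all genes) and 9 with PBS replicate 3 also left out (30.4%). Leaving out each library in turn gave 0 to 10 large and 1 to 11 small subunit members lower, with the lowest counts whenever a pIpC library was left out (2, 1 and 1 members in all) and the highest without PBS replicate 3, which also gave 7 large and 2 small subunit members higher (0 in the other fits that leave out a library). Over the same fits 4650 to 9783 genes were called in either direction, against 6808 with all 6 libraries. Without PBS replicate 3, 30.6% of all genes were lower and 34.5% higher. Removal of the length trend gave 2 and 2 higher (28.7% of all genes), and without PBS replicate 3 11 and 5 (35.3% of all genes). With the replicate block as well as that removal it was 2 and 1, and the share of all genes is not given here. The cause was not tested, except that these fits use fewer libraries where one is left out. The replicate block alone gave 11 members lower, with Mrpl32, Mrpl3 and Mrps10 no longer called and Mrps36 called under it. The share of all genes called under the block is not given here. Same-numbered libraries did not deviate together (correlations of -0.117, 0.143 and 0.041), none correlated best with its own number, and the numbers were not taken as pairs. The median of the large minus that of the small subunit was 0.07 (0.04 to 0.12 with a library left out). It was 0.15 with the length trend removed with or without the block, and 0.11 with PBS replicate 3 also left out. With Mrps30 and Mrps18a in the large subunit and Mrps36 left out, the medians at that last setting were 0.02 (large) and -0.0 (small). For genes of mitochondrial DNA the median of -0.40 became -0.08 with the length trend removed, with or without the block (-0.48 to -0.20 with a library left out). For mitochondrially encoded mRNAs 0.39 became 0.16 with quantile normalization, 0.60 with the length trend removed (0.60 with the block) and 0.26 with the GC trend removed (0.24 to 0.46 with a library left out). The ratio difference of -0.061 was -0.087 to -0.026 with a library left out, 0.021 without division by length and 0.066 for geometric means. Quantile normalization moved the median of all genes to -0.12 and the share of calls that were higher from 55.1% to 44.3%. Under it 16 of the 77 members were lower and 0 higher, with a member median of -0.46, where 4078 of the 15020 genes were lower and 3244 higher.

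With the length trend removed, with or without the block, log2 fold changes changed direction for Aurkaip1 (0.28), Mrpl20 (0.42), Mrpl44 (0.14), Mrpl45 (0.010), Mrps17 (0.018), Mrps21 (0.13), Mrps34 (0.34) and mt-Nd6 (0.17). With the GC trend removed they did so for Aurkaip1 (0.062), Mrps22 (-0.012) and Mrps34 (0.15), and for Mrps18c with edgeR (-0.045) and DESeq2 (-0.033). With a library left out, the values ran from -0.25 to 0.39 for Aurkaip1, -0.33 to 0.17 for Gadd45gip1, -0.25 to 0.28 for Mrpl20, -0.20 to 0.13 for Mrpl44, -0.18 to 0.26 for Mrpl45, -0.073 to 0.51 for Mrpl55, -0.75 to 0.0051 for Mrps12, -0.14 to 0.57 for Mrps18c, -0.66 to 0.21 for Mrps21, -0.083 to 0.24 for Mrps22, -0.19 to 0.27 for Mrps34 and -0.54 to 0.17 for mt-Nd6. None of these genes was called in the main test of all 6 libraries; with the length trend removed Mrpl20 (adjusted p = 0.00903, 0.0412 with the block), Mrpl55, Mrps18c and Mrps22 were called higher.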

Other observations

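Mitochondrial ribosomal protein genes often shared an upstream region with a neighbour. A start site on the opposite strand within 1000 bases upstream, with the genes pointing away from each other, was found for 22 of 77 members (28.6%), against 1361 of 12316 protein-coding genes tested (11.1%). Of the 22 partners, 7 were lower and 5 higher in pIpC (20.4% and 25% of all genes tested), counting Mrpl46 and Mrps11 as partners of each other. Mrps11 was lower (log2 fold change -0.87), whereas Mrpl46, 30 bases away, had 259, 267 and 680 normalized counts in PBS and 283, 273 and 268 in pIpC (log2 fold change -0.39, adjusted p = 0.442). Mrps18b lies 177 bases from Ppp1r10, which had 1305, 1243 and 894 in PBS and 1529, 1722 and 1557 in pIpC (log2 fold change 0.50, adjusted p = 0.062), and Mrpl54 lies 26 bases from Apba3 (log2 fold change 0.37, adjusted p = 0.098), so that in these pairs the member was lower and the partner higher. Mrps12 lies 232 bases from Sars2, the mitochondrial seryl-tRNA synthetase, which was lower (log2 fold change -0.64, adjusted p = 0.0458), and Mrpl43 lies 116 bases from Twnk, the mitochondrial DNA helicase (log2 fold change -0.44, adjusted p = 0.0642). Mrpl49 lies 182 bases from Fau, a gene of the cytoplasmic ribosome, which had 11695, 12484 and 43730 in PBS and 8460, 8529 and 9251 in pIpC, so that the excess in PBS replicate 3 was also present in a cytoplasmic ribosomal protein gene (log2 fold change -1.09, adjusted p = 0.13; -0.47 without PBS replicate 3, adjusted p = 0.000447).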
